A study of Rattus norvegicus with 27 samples.

Results

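Bc1, the brain cytoplasmic RNA of rodents, was described in brain punches labelled as the cerebellar interpositus nucleus of young adult rats. It is 1 of 17321 genes in a merged count table and 1 of the 12107 that kept enough reads to be tested. The gene was chosen from its own read counts in these animals and from their relation to transcript length. Its levels, its fold changes and that relation are therefore given as descriptions, with no test. The table held 27 Long-Evans rats of postnatal day 70, each a separate animal. There were 5 normally reared females and 7 normally reared males (no treatment, NT), and 7 females and 8 males raised with limited bedding (LB) on postnatal days 2 to 9. The LB procedure leaves the dam and litter with little nesting material and is used as a model of early-life stress. No strain, transgene or drug set the groups apart.

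Bc1 is a short noncoding RNA that RNA polymerase III makes in neurons. It is carried into dendrites, where it is known as a repressor of translation initiation through the helicase eIF4A, its cofactor eIF4B and the poly(A)-binding protein. It has no long poly(A) tail of the messenger kind but holds an internal A-rich stretch, which a poly(A) capture kit can bind. Its 5′ part is the founder of the ID family of rodent repeats, so near-identical copies lie across the genome.

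In the rn6 build used for the counts, Bc1 was listed at chr1:218075359-218075511 on the plus strand, as 1 exon of 153 bases. No exon of another gene overlapped it. Oraov1 began 484 bases downstream on the same strand, at a mean level of 21.3 CPM (read counts scaled to a common library size), and its r with Bc1 was -0.57 after group means were subtracted. Ccnd1, the gene of cyclin D1, lay 15239 bases downstream on the other strand at 36.8 CPM.

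The promoter and start of the gene are shown because a polymerase III gene of this kind carries its control element inside the transcribed part. The window below is RefSeq sequence of build GRCr8, chr1:209502647-209502946, plus strand, with the first 50 transcribed bases in capitals. The line after it repeats those 50 bases with the match to the A box, the internal polymerase III element, in capitals.
Bc1 promoter and start: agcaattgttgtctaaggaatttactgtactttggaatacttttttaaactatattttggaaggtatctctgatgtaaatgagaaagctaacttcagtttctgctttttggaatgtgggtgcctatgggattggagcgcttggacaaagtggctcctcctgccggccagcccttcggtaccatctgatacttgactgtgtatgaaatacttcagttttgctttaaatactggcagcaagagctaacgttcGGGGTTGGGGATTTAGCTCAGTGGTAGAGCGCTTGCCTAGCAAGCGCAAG
Bc1 transcribed start: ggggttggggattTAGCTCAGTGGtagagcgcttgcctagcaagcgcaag

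The A box match spanned transcribed bases 14 to 24. An A box match on either strand stood in 22.9% of 33469 RefSeq windows of the same length, and in 2.12% it lay in the transcribed part on the forward strand. TATAAA was absent from the Bc1 window on both strands and present in 14.2% of windows. CANNTG, which reads the same on both strands, occurred 2 times before the start and was present in 72.1% of windows. These matches are descriptions of the letters. The first 20 bases of Bc1 were found exactly in 114 of the other 33468 windows (0.341%), the first 40 in 48 (0.143%) and all 50 in 11 (0.0329%). How the counting treated reads that fit several such copies is not given in the sources used here, and the Bc1 counts depend on it.

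Bc1 took a large and very uneven part of the reads. It received 25744 to 484023 reads of 11836684 to 24169170 counted per animal, or 0.173% to 2.00%, an 11.5-fold range. It ranked first of all genes in 6 animals and among the first 5 in 21, and its lowest rank was 38. Only Mbp, the gene of myelin basic protein, had a higher mean share, at 1.26% against 0.80% for Bc1. Per kilobase of exon, Bc1 led the table with a mean of 53255 CPM per kb, and the next of the most counted genes, Cst3 (cystatin C), had 5181 CPM per kb. Among the 100 genes of highest mean CPM, Bc1 also had the largest SD of log2 CPM over all animals, 1.11, where the median of those genes was 0.29. The 95% Wilson interval of each share was at most 0.0078 percentage points to either side. That interval covers counting error only and is small beside the differences between animals.

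In NT females, Bc1 took 0.173%, 0.198%, 0.245%, 0.250% and 0.472% of the counts in animals 1013, 2011, 1011, 2012 and 2013. Animal 2013 stood above the other 4. In NT males the lowest share was 0.462%, the median 1.14% and the highest 1.91%, and 6 of the 7 males lay above every NT female. In LB females the lowest share was 0.196%, the median 0.684% and the highest 1.07%. In LB males the lowest share was 0.435%, the median 1.02% and the highest 2.00%, with 4 animals at or below 0.688% and 4 at or above 1.35%. In CPM, the SD was 45.1% of the mean in NT females, 51.1% in NT males, 59.2% in LB females and 55.1% in LB males, so the relative spread was of like size in the 4 groups while the level of NT females was the lowest.

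**Figure D1:**
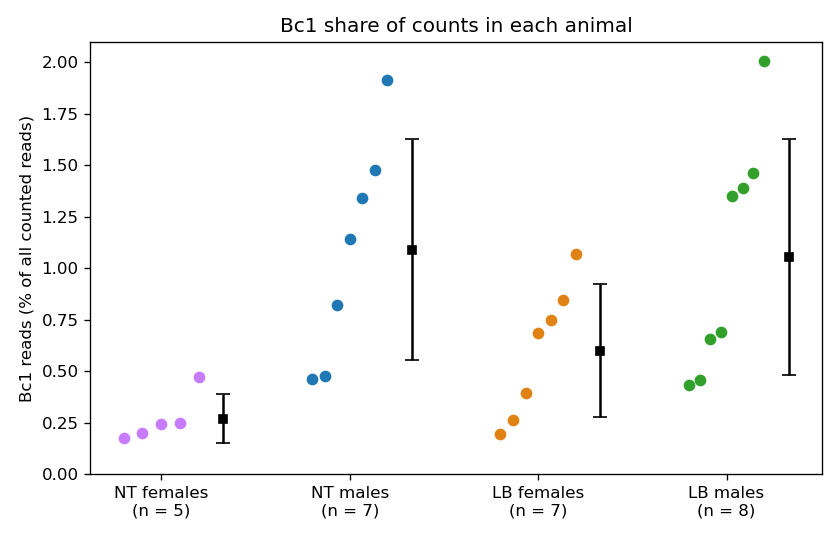
Bc1 reads as a percentage of all counted reads (vertical axis), with 1 point per animal in each of the 4 groups and the group mean ± SD as a black square with bars. NT females lie between 0.173% and 0.472%, and the other groups reach 1.07% to 2.00%.

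The mean share was 0.268% ± 0.119 (SD, n = 5) in NT females, 0.599% ± 0.323 (n = 7) in LB females, 1.05% ± 0.574 (n = 8) in LB males and 1.09% ± 0.538 (n = 7) in NT males. In that order, the last 2 groups differed by far less than either SD. LB females and LB males differed by less than the SD of the LB males but by more than that of the LB females. NT and LB females overlapped in range. In log2 CPM the SD within groups, pooled, was 0.85.

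For sex among NT rats, the log2 fold change of Bc1 (males minus females) was 2.09 ± 0.48 (SE), a 4.25-fold difference. Among LB rats it was 0.83 ± 0.40, or 1.78-fold, and 4 of 8 males lay above every female. For treatment, LB minus NT, it was -0.01 ± 0.40 in males and 1.25 ± 0.46 in females, the latter 2.38-fold with 4 of 7 LB females above every NT female. Whether the sex difference itself differed between treatments was not tested here. The comparisons share groups, so they are not separate pieces of evidence. Of all 12107 tested genes, 97.6% had a lower log2 fold change than Bc1 for sex among NT rats, 95.6% for sex among LB rats, 51.4% for treatment in males and 99.7% for treatment in females. Because CPM values are relative, and a punch holds several cell types, a change in the RNA per cell and a change in the number of cells cannot be told apart.

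The animals' titles fell into 10 sets that differ within a set by the final digit. What a set stands for is not given in the labels, and the animals of a set may not be independent. Each set held 1 sex and treatment, and each group held few sets, so a difference between groups also carries that between their sets. Between animals of a set, the consensus correlation over the tested genes was 0.17 after groups were fitted. LB females 5021, 5022 and 5023 had 0.748% to 1.07% and LB females 8021, 8022, 8023 and 8024 had 0.196% to 0.684%, with no overlap. The means of these sets were 0.886% and 0.384%, against 0.268% in NT females. With the set as a random block (limma), the log2 fold change of Bc1 for sex was 2.00 ± 0.53 (SE) among NT rats. Among LB rats it was 0.83 ± 0.49. For treatment it was -0.02 ± 0.47 in males and 1.15 ± 0.54 in females.

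The punches also differed in the cells they held. Slc17a6, the vesicular glutamate transporter of excitatory deep nucleus neurons, was at 2.46 to 2.89 CPM in NT females, 0.28 to 380.3 CPM in NT males, 1.04 to 3.26 CPM in LB females and 0.47 to 74.9 CPM in LB males. Meis2, a transcription factor of the nuclei, was at 0.11 to 1.73 CPM in NT females and 0.28 to 99.7 CPM in NT males. Both defining markers of the labelled nucleus were thus near 0 in all females and in some males. Gabra6, the granule cell GABA-A receptor subunit of the cerebellar cortex, was at 1160 to 1268 CPM in NT females and 199 to 1153 CPM in NT males.

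Bc1 followed several of these marker lists over the 27 animals. All points of these correlations share their libraries and scaling, and they are given with no test. With the mean log2 CPM of the list, r was -0.78 for 7 granule cell markers and -0.80 for 7 Purkinje cell markers. It was 0.81 for 8 microglia markers, 0.63 for 6 deep nucleus markers and 0.61 for 7 oligodendrocyte markers. It was -0.02 for 8 general neuronal markers. After group means were subtracted, r was -0.65, -0.73, 0.64, 0.47, 0.33 and 0.16 in the same order. These lists were also related, to differing degrees, to transcript length, with values given below. The general neuronal list held genes of both signs: after group means were subtracted, r with Bc1 was 0.68 for Tubb3, 0.45 for Syp and -0.30 for Snap25. For the remaining lists r was 0.45 for endothelial and pericyte markers, 0.40 for meningeal, 0.12 for choroid plexus and 0.05 for astrocyte markers. With group means subtracted these were 0.39, -0.09, 0.002 and -0.22.

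The summed CPM of the lists show the size of those shifts. The granule cell list summed to 5833 to 6658 CPM in NT females, 1880 to 5716 in NT males, 3400 to 6403 in LB females and 3079 to 5978 in LB males. The deep nucleus list summed to 454 to 542 CPM in NT females, 494 to 4058 in NT males, 483 to 786 in LB females and 521 to 816 in LB males. The oligodendrocyte list summed to 7621 to 11707 CPM in NT females, 11118 to 52560 in NT males, 11253 to 40856 in LB females and 13942 to 43534 in LB males. The Purkinje cell list summed to 4422 to 4856 CPM in NT females and 2451 to 4806 in NT males, and the microglia list to 102 to 129 and 119 to 266 CPM. The part of cell makeup in the Bc1 differences was not tested.

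Sex among NT rats was the comparison in which most genes passed. The quasi-likelihood test of edgeR, with p-values adjusted by Benjamini-Hochberg, called 1840 of 12107 genes (15.2%), 1225 higher and 615 lower in males. For sex among LB rats it called 30 genes (0.248%), for treatment in males 0 (0%) and for treatment in females 1 (0.00826%). For treatment in males 1211 genes had an unadjusted p under 0.05, and DESeq2 called 3. Without LB female 5022, whose long genes were the lowest of all animals, the counts for sex were 2735 among NT rats and 1059 among LB rats. With the title set as a random block, fitted with limma in place of edgeR, they were 2 and 4. No limma fit without the block was run. In every count given with the block, the block and the change of test therefore cannot be told apart.

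The counts in the lists that follow are for sex among NT rats, where 15.2% of all tested genes were called, and with the title set as a random block 0 of the 192 listed genes passed. In the marker lists, NT males had higher levels of all 7 oligodendrocyte genes, among them Mbp (log2 fold change 1.80 ± 0.43 SE, adjusted p = 0.013) and Mobp (1.51 ± 0.33, adjusted p = 0.011). Of the 6 deep nucleus genes 5 rose, led by Nefm, a neurofilament subunit (1.77 ± 0.40, adjusted p = 0.012), and Spp1, osteopontin (5.15 ± 1.19, adjusted p = 0.012), while the more abundant Nefh had 0.75 ± 0.29 with adjusted p = 0.074. Of 8 microglia genes 4 rose, with the calcium-binding Aif1 at 1.27 ± 0.26 (adjusted p = 0.010) and the receptor Csf1r at 0.71 ± 0.21 (adjusted p = 0.024). Of 7 granule cell genes 3 fell, with the synaptic organiser Cbln3 at -1.40 ± 0.28 (adjusted p = 0.010) and the transcription factor Zic1 at -1.12 ± 0.26 (adjusted p = 0.012). Of 7 Purkinje cell genes 4 fell, including the glutamate transporter Slc1a6 at -0.82 ± 0.22 (adjusted p = 0.020) and Rgs8 at -0.98 ± 0.28 (adjusted p = 0.025). The neuronal list had 1 called gene of 8, Tubb3, a neuronal tubulin, at 0.98 ± 0.28 (adjusted p = 0.024), and the astrocyte list 2 of 6, both higher: S100b at 0.61 ± 0.20 (adjusted p = 0.041) and Gfap at 0.78 ± 0.26 (adjusted p = 0.042). Choroid plexus markers were called in 2 of 3 genes, Folr1 and Ttr (the third, Kl, had adjusted p = 0.089), and meningeal markers in 2 of 5, Igf2 and Dcn, all higher in NT males. Of 6 endothelial and pericyte genes edgeR called 0. The 2 listed genes called for sex among LB rats were the meningeal Col1a1 (1.09 ± 0.19, adjusted p = 0.0065) and Igf2 (1.48 ± 0.24, adjusted p = 0.0033), both higher in males.

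Several of the most abundant members of these lists did not pass. In the granule cell list, Etv1, a transcription factor, had a log2 fold change for sex among NT rats of -0.34 ± 0.24 (SE, adjusted p = 0.33), and Fat2, a large cadherin, had -0.71 ± 0.26 (adjusted p = 0.062). The Purkinje cell genes Car8 and Calb1 (calbindin) had -0.45 ± 0.22 and -0.28 ± 0.22, with adjusted p = 0.15 and 0.40. The synaptic genes Snap25 and Syp had -0.02 ± 0.23 and 0.20 ± 0.17, with adjusted p = 0.96 and 0.43. By contrast, the complement gene C1qa of microglia passed, with a rise of 0.75 ± 0.23 (adjusted p = 0.030). The water channel gene Aqp4 of astrocytes had 0.18 ± 0.29, and the vascular genes Flt1 and Cldn5 had 0.08 ± 0.15 and 0.35 ± 0.25, none of which passed. Ttr, the transthyretin gene of the choroid plexus, passed (5.21 ± 1.69, adjusted p = 0.038) but ranged from 1.96 to 6342 CPM within NT males alone.

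The level of Bc1 was also related to how well long transcripts were represented. Tested genes other than Bc1 were split by exon length into 4 classes of equal size, from 60 to 1481 bases in the shortest class to 3338 to 23521 in the longest. The length index of an animal was the mean log2 CPM of the longest class minus that of the shortest, so a low index means that long genes were low relative to short ones. It averaged 1.18 ± 0.09 (SD, n = 5) in NT females, 0.90 ± 0.22 (n = 7) in NT males, 0.93 ± 0.38 (n = 7) in LB females and 0.70 ± 0.16 (n = 8) in LB males. LB female 5022 had the lowest index, 0.24, and LB female 8021 the highest, 1.44.

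Over the 27 animals, Pearson's r of Bc1 log2 CPM with the length index was -0.71 and Spearman's rho was -0.70. Without animals 5022 and 8021, the farthest from the median index, r was -0.68. With group means subtracted r was -0.60, and -0.44 without the same 2 animals. Part of the relation thus lay between the groups and part within them. Within groups r was -0.93 in LB females (n = 7), -0.40 in LB males (n = 8) and -0.26 in NT males (n = 7), and with 5 NT females none is given. The LB females form 2 title sets. The length index ran from 0.235 to 0.842 in the set of 5022 and from 0.880 to 1.44 in that of 8021. Bc1 shares, at 0.748% to 1.07% and 0.196% to 0.684%, did not overlap either. The r of -0.93, like that with group means subtracted, therefore also carries the difference between these sets. In the set of 8021 the share fell with each rise in index, and in that of 5022 it did not. Sequencing depth was little related to Bc1 or the index: r of log2 total counts was -0.18 and 0.03. The marker lists were related to the index as well. Their r with it was 0.56 for granule cells, 0.46 for Purkinje cells and 0.40 for general neurons. It was -0.69 for microglia, -0.56 for oligodendrocytes and -0.23 for deep nucleus neurons. The relations of Bc1 to these lists and to the index were not separated.

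**Figure D2:**
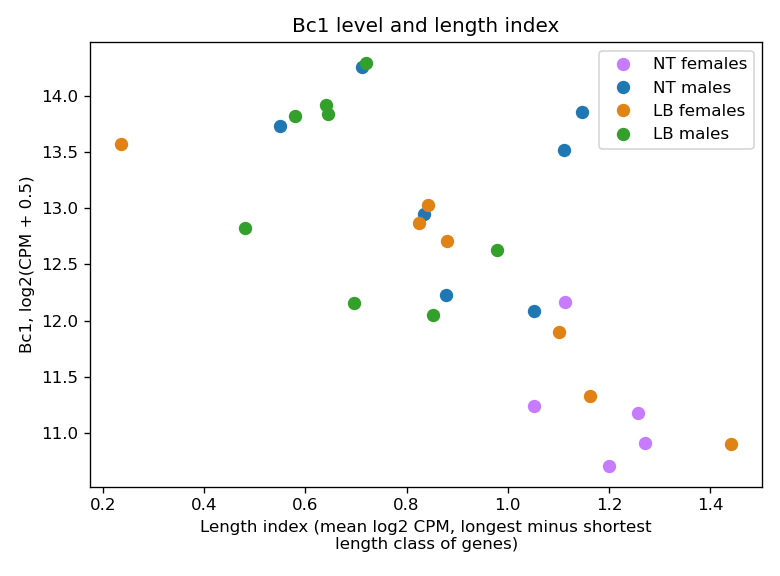
Bc1 level as log2(CPM + 0.5) (vertical axis) against the length index (horizontal axis, log2 units), 1 point per animal, coloured by group. Bc1 is lower where the index is higher (r = -0.71, n = 27), with NT males 6111 and 6112 far above the trend.

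NT males 6111 and 6112 did not follow the trend. Their Bc1 shares were 1.48% and 1.14% at length indices of 1.15 and 1.11, close to those of NT females, and they lay 1.93 and 1.49 log2 units above the line fitted through all animals. Both share a title set, and their Meis2 levels, 69.1 and 99.7 CPM, were the highest of all 27 animals. Their Slc17a6 levels were 11.96 and 380.3 CPM, and that of 6111 was below those of NT males 3111 (59.9 CPM) and 4113 (30.1 CPM) and LB males 7122 (74.9 CPM) and 121 (21.6 CPM). Around the line, NT females lay on average -0.60 and NT males 0.61 log2 units away, and LB females and LB males -0.21 and 0.02. With the length index as a covariate in the fit, the log2 fold change of Bc1 was 1.56 ± 0.42 (SE) for sex among NT rats and 0.55 ± 0.36 among LB rats. For treatment it was -0.45 ± 0.36 in males and 0.56 ± 0.41 in females, the last down from 1.25.

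The relation was closer with short genes than with long ones. The mean log2 CPM of the shortest class had an r of 0.86 with Bc1, the second class 0.64, the third -0.12 and the longest -0.48. A rise of short genes and a fall of long ones cannot be told apart on a relative scale. Taking Bc1 out of the totals shifted no other gene by more than 0.03 log2 units in any animal.

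**Figure D3:**
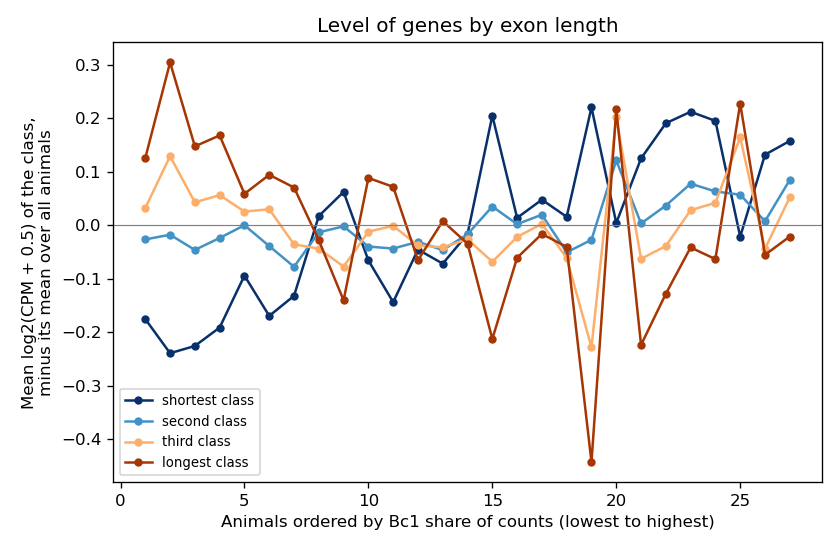
Mean log2(CPM + 0.5) of each class of tested genes by exon length, minus its mean over all animals (vertical axis), with the 27 animals ordered from the lowest to the highest Bc1 share (horizontal axis) and 1 line per class. The shortest class climbs with Bc1 (r = 0.86), and the longest class drops lowest in LB female 5022.

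Set against other genes, the direction of the relation was common and its steepness was not. The r with the length index was more negative than that of Bc1 in 12.6% of all tested genes and in 36.9% of the shortest class. The slope of Bc1 was -2.77 log2 units per unit of index, where the median was -0.63 in the shortest class and 0.45 in the longest. In the shortest class, 0.132% of genes had a steeper negative slope. A gene of larger spread has a steeper slope at the same r, and Bc1 had the larger spread.

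Likeness to Bc1 across all genes fell with length. Likeness was the Pearson r of log2 CPM with Bc1 over 27 animals after group means were subtracted. Its median was 0.41 in the shortest of 10 equal groups of genes by exon length, whose median length was 760 bases, and -0.30 in the longest, at 6056 bases. Of the 100 genes most like Bc1, 77 were in the shortest class and 0 in the longest, with a median length of 1075 bases. Of the 100 most opposed, 5 were in the shortest and 61 in the longest, with a median of 3781.5 bases. The median length of all tested genes was 2197 bases.

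**Figure D4:**
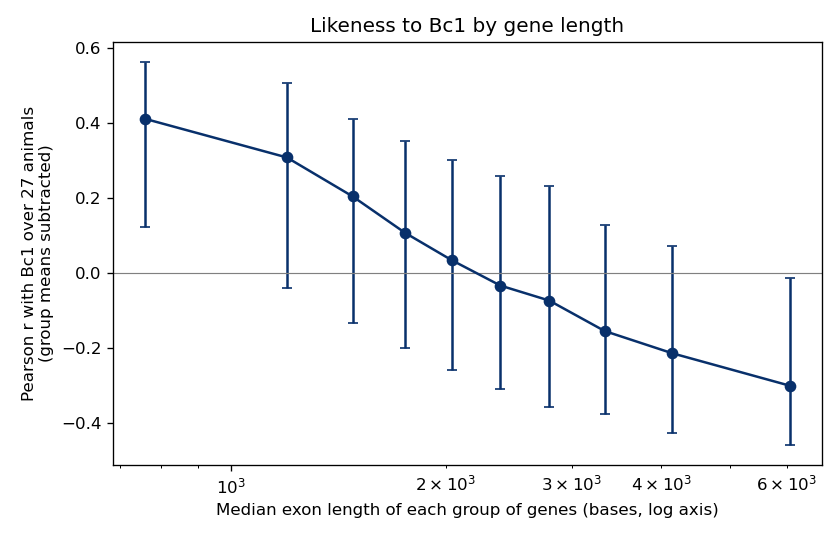
Pearson r with Bc1 over 27 animals, group means subtracted (vertical axis), in 10 groups of tested genes of equal size against their median exon length in bases (horizontal log axis). Points are medians and bars run from the lower to the upper quartile, and the median goes from 0.41 to -0.30.

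Lin7b, a scaffold protein of synapses, was the gene most like Bc1, with r = 0.85. It was at 8.98 ± 1.71 CPM (SD, n = 5) in NT females, 25.7 ± 14.97 (n = 7) in NT males, 11.9 ± 5.17 (n = 7) in LB females and 25.5 ± 14.7 (n = 8) in LB males. Its range in NT females, 7.29 to 11.8 CPM, overlapped that in NT males, 10.5 to 53.1 CPM, and it was higher in NT males with a log2 fold change of 1.52 ± 0.41 (SE, adjusted p = 0.019). Next came Ndn, the gene of necdin, with r = 0.82, and Tmsb10, the actin-binding thymosin beta 10, with r = 0.82. Ndn was at 140 to 155 CPM in NT females and 175 to 409 CPM in NT males (log2 fold change 0.85 ± 0.22, adjusted p = 0.016). Tmsb10 was at 64.8 to 84.6 CPM in NT females and 111 to 447 CPM in NT males (1.85 ± 0.38, adjusted p = 0.010). How common ranges without overlap were among all tested genes was not counted. Ckmt1 (mitochondrial creatine kinase), Chchd6 (mitochondrial cristae), Mgst3 (glutathione transferase), Arpc3 (actin nucleation) and Fdps (sterol synthesis) followed with r from 0.80 to 0.81. Of these 5, Chchd6 and Mgst3 were higher in NT males, with adjusted p = 0.017 and 0.030, and the log2 fold changes of the others were 0.36 to 0.48 with adjusted p from 0.064 to 0.096.

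The most opposed genes were Brd1 (a chromatin reader, r = -0.84), Gad1 (the GABA-synthesising enzyme, r = -0.82), Tbc1d9 (r = -0.81) and Sorl1 (a sorting receptor, r = -0.81). Their exon lengths ran from 3198 to 7079 bases, against 472 to 1600 bases for the 8 genes most like Bc1. Brd1, Tbc1d9 and Sorl1 were lower in NT males. Their log2 fold changes were -0.36 ± 0.11, -0.47 ± 0.14 and -0.65 ± 0.16 (SE) and adjusted p = 0.031, 0.028 and 0.014. Gad1 was at 516 to 697 CPM in NT females and 370 to 582 CPM in NT males, which overlap, with -0.40 ± 0.15 (adjusted p = 0.075). These 12 genes were picked for their r with Bc1 in the same animals. For sex among NT rats, edgeR called 15.2% of all tested genes. With the title set as a random block, 2 of all tested genes were called. None of these 12 genes passed in the other 3 comparisons with edgeR. Of all tested genes, 0.248% were called there for sex among LB rats, 0% for treatment in males and 0.00826% for treatment in females.

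The 5 most abundant of the 41 other tested genes with exons of at most 153 bases were all microRNA genes by name. Mir3064 had a mean of 13.7 CPM and r = -0.57, Mir770 9.28 CPM and -0.22, Mir568 4.84 CPM and -0.47, Mir27b 3.59 CPM and 0.09, and Mir2985 3.08 CPM and -0.34. None of the 5 passed in any of the 4 comparisons with edgeR. Of 7 other short noncoding RNAs in the table, 2 had enough reads to be tested. Rmrp, the RNA of the mitochondrial RNA processing ribonuclease and another polymerase III product, was at a mean of 4.95 CPM with r = 0.50. Its log2 fold changes were 1.00 ± 0.44 (SE) for sex among NT rats, 0.76 among LB rats, 0.89 for treatment in males and 1.13 in females, none of which passed. Scarna15, at 0.59 CPM, had r = 0.08. Among long noncoding RNAs, Snhg11 was at 493.03 CPM with r = 0.05 and Miat at 169 CPM with r = -0.18.

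Genes of proteins reported to bind Bc1, or to act with such proteins, were listed as its partners. Of 11 listed, 10 were in the table and tested, and 1 passed for sex among NT rats: Purb, a purine-rich element binding protein, fell by 0.495 on the log2 scale in males (SE 0.168, adjusted p = 0.047). That is 1 of 10 against 15.2% of all tested genes, and 0 passed with the title set as a random block or with the length index as a covariate. The helicase gene Eif4a1 was at 216 ± 8.89 CPM (SD, n = 5) in NT females and 241 ± 23.3 (n = 7) in NT males, with a log2 fold change of 0.16 ± 0.09 (SE, adjusted p = 0.23), and its r with Bc1 was 0.63. Its paralog Eif4a2, at a mean of 1325 CPM, had r = -0.23 and Eif4b, at 367 CPM, r = -0.05. Pabpc1, the poly(A)-binding protein, was at 379 CPM with r = 0.02 and a log2 fold change of -0.06 ± 0.09. Fmr1, the fragile X protein gene, and Cyfip1, its partner, had r of -0.29 and -0.47 and log2 fold changes of 0.02 ± 0.28 and -0.03 ± 0.18. Syncrip and Hnrnpa2b1, RNA-binding proteins of transport granules, and Ssb, the La protein that binds new polymerase III transcripts, had r from -0.43 to -0.15. For these last 3 the log2 fold changes were -0.18, 0.20 and 0.33, and none passed. The median r of the 10 genes was -0.19, where that of all tested genes was 0.02.

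**Figure D5:**
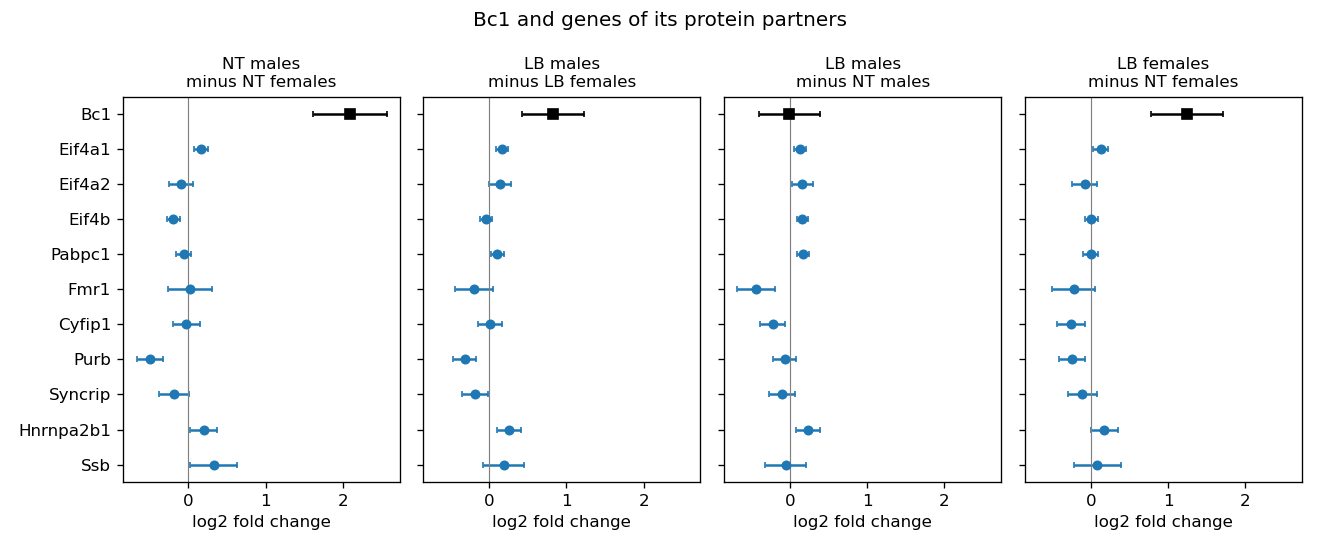
Log2 fold change ± SE (horizontal axis, log2 units) of Bc1 (black square) and the 10 tested genes listed as its partners (blue points) in the 4 comparisons, 1 panel each. Bc1 is at 2.09, 0.83, -0.01 and 1.25, and in sex among NT rats Purb (-0.495) is the partner gene that passed.

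Dendritic messenger RNAs studied with Bc1 or the fragile X protein formed a further list. The abundant members Map1b, a microtubule-associated protein gene (2232 CPM), and Mapt, the tau gene (1189 CPM), had log2 fold changes of 0.16 ± 0.11 and 0.20 ± 0.13 and adjusted p = 0.32 and 0.29.

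Of 28 genes of the polymerase III machinery, 26 were tested, and 2 were higher and 4 lower in NT males. These are 6 of 26 against 15.2% of all tested genes, and 0 passed with the title set as a random block and 2 with the length index as a covariate. Snapc2, a subunit of the complex for small nuclear RNA promoters, was higher by 0.73 ± 0.20 (SE, adjusted p = 0.020), and Gtf3a, the factor of 5S RNA genes, by 0.43 ± 0.13 (adjusted p = 0.027). Gtf3c1, the large TFIIIC subunit that contacts internal promoter elements, was at a mean of 148 CPM and fell by 0.42 (SE 0.13, adjusted p = 0.035). Maf1, the general repressor of polymerase III, was at 139 CPM with -0.20 ± 0.13 (adjusted p = 0.27). The exons of Gtf3c1 span 6905 bases, those of Snapc2 1507 and those of Gtf3a 1332. The median log2 fold change of the list was -0.10, where that of all tested genes was 0.03.

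The ribosomal protein genes, short and abundant, had levels that went with those of Bc1. Their median exon length was 699.5 bases, and 75 of 76 had a positive r with Bc1, with a median of 0.55. In the shortest of the 10 groups of all tested genes by exon length, 81.2% had a positive r and the median was 0.41. For sex among NT rats 4 of 76 passed, a smaller share than the 15.2% of all tested genes, and 0 passed with the title set as a random block or with the length index as a covariate. All 4 were higher in males, led by Rps24 (0.61 ± 0.18, adjusted p = 0.027) and Rpl41 (0.70 ± 0.21, adjusted p = 0.030). The most abundant, Rpl13a and Rpl3, had 0.45 ± 0.22 and 0.04 ± 0.14, with adjusted p = 0.15 and 0.86. The log2 fold change was above 0 in 76 of 76 for sex among NT rats, 73 for sex among LB rats, 75 for treatment in males and 76 for treatment in females. The medians were 0.41, 0.25, 0.37 and 0.54, where those of all tested genes were 0.03, 0.01, -0.02 and 0.02. The share above 0 among other short genes was not counted. Most of these genes lie in the shortest class, from which the length index was built. A fall in their values or calls with the index as a covariate is therefore partly built in. With that covariate, 45, 41, 70 and 68 were above 0 and the medians were 0.02, 0.01, 0.12 and 0.11. The Bc1 values in the same order were 2.09, 0.83, -0.01 and 1.25, and the difference between Bc1 and these genes was not tested.

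Over all lists, 42 of 192 tested genes were called for sex among NT rats, against 15.2% of all tested genes, and 2 for sex among LB rats. With the title set as a random block these counts were 0 and 1. For treatment edgeR called 0 listed genes in males and 0 in females. The unadjusted p was under 0.05 in 56 and 77 of them, of which 38 and 63 were ribosomal protein genes, where over all 12107 tested genes it was so in 1211 and 961. DESeq2 called 1 and 0 listed genes. The neighbour Ccnd1 was higher in NT males by 0.74 ± 0.21 (SE, adjusted p = 0.023), and Oraov1 had -0.10 ± 0.11 (adjusted p = 0.55).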

How the data were processed

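Punches of the interpositus nucleus were homogenised, RNA was purified, and libraries were made with the KAPA mRNA HyperPrep kit. The labels give the molecule as total RNA. The authors removed samples of low RNA integrity, and the integrity of each remaining sample is not given in the sources used here. The relation of RNA integrity to the length index and to Bc1 was therefore not tested. Per the submitters' processing notes, reads were aligned with STAR 2.5.2b to rn6 and counted with featureCounts of Subread 1.5.1. The annotation release, strand setting and treatment of multi-mapped reads are not given in the sources used here. The authors deposited raw counts per gene, with exon coordinates and length. Totals ran from 11836684 to 24169170 per animal (median 16034036).

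Genes were kept by edgeR's filterByExpr (minimum count 10, minimum total 15), scaled by TMM and tested with edgeR 4.0.16 (quasi-likelihood, robust) in R 4.3.3, in 1 model of the 4 groups, with Benjamini-Hochberg adjustment over 12107 genes and a threshold of 0.05. The scripts were tested on simulated data. DESeq2 1.42.0 and limma 3.58.1 (title set as a random block) served as alternatives. Log values are log2(CPM + 0.5). Correlations used numpy 2.4.6. No pair of the 80 within groups was identical.

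Bc1 and all gene lists were chosen with earlier results of these data known. Named genes were Bc1, its partners, from each list the 2 of highest mean CPM and up to 2 called of smallest adjusted p for sex among NT rats, any listed gene called elsewhere, the 8 genes most like and 4 most opposed to Bc1, its neighbours and the 5 most abundant genes no longer than it. Slc17a6, Meis2 and Gabra6 were given as defining markers of the tissue. The results of 2 genes that this rule names are not reported here.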

Additional observations from a re-analysis of the deposited data

Results flagged for a closer look

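Of 96 groups of values checked with Dixon's 95% criterion for a single animal far from the rest of its group, 8 were flagged, and chance flags about 1 in 20. Bc1 itself was flagged in NT females, where animal 2013 had 0.4725% of counts and the other 4 had 0.173% to 0.250%. LB female 5022, the animal with the lowest length index, was flagged for 5 genes: Tmsb10 at 276.4 CPM, Ckmt1 at 781.7 CPM and Mgst3 at 102.5 CPM stood above the other LB females, and Fmr1 at 19.14 CPM and Cyfip1 at 21.99 CPM below them. Tmsb10 was flagged in LB male 122 at 470.2 CPM, above the other LB males. Ssb was flagged in NT male 3113 at 47.08 CPM, below the other NT males.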

How the results depend on the processing

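The log2 fold changes of Bc1 moved by less than the pooled within-group SD under every alternative run. That SD, 0.85, describes single animals and is larger than the SE of the fold changes, 0.40 to 0.48. With the length index as a covariate, treatment in females went from 1.25 to 0.56, a move larger than its SE. Sex among NT rats went from 2.09 to 1.56 and treatment in males from -0.01 to -0.45. Leaving out 1 animal at a time, the log2 fold changes of Bc1 ran from 1.89 to 2.40 for sex among NT rats, 0.64 to 1.09 among LB rats, -0.20 to 0.19 for treatment in males and 0.99 to 1.56 in females. The correlation of Bc1 with the length index went from -0.71 to -0.60 when group means were subtracted. The counts of called genes moved more, and the cause was not tested. Those with the block also carry the change from edgeR to limma. For sex among NT rats, 1187 genes were called with the length index as a covariate and 2 with the title set as a block, against 1840. For sex among LB rats the counts were 14 with the covariate, 408 with DESeq2 and 4 with the block, against 30. For treatment DESeq2 called 3 genes in males and 6 in females. Of listed genes, 23 were called for sex among NT rats with the covariate and 0 with the block, 11 among LB rats with DESeq2 and 1 with the block, and 1 for treatment in males with DESeq2. Leaving out 1 animal at a time, the counts ran from 590 (without NT female 1011) to 2735 (without LB female 5022) for sex among NT rats, from 12 (without LB male 9123) to 1059 (without 5022) among LB rats and from 1 to 7 (without 8021) for treatment in females, and for listed genes from 14 (without 1011) to 60 (without 5022) and from 2 to 29 (without 5022) for sex. The replicate numbers of the groups follow accession order and pair no animals. The median of all tested genes stayed within 0.1 log2 units of 0 under TMM, library size alone and DESeq2.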

Other observations

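An alternative chosen after the data were seen removed the length index, as well as the group means, from every gene before the correlation with Bc1. The index contrasts long with short genes, so some loss of the length pattern follows from its removal. The genes most like Bc1 were then no longer mainly short: the 100 highest had a median exon length of 1897.5 bases, with 32 in the shortest length class and 20 in the longest. The 100 lowest had a median of 2503 bases, with 10 in the shortest class and 29 in the longest. The proteasome subunit gene Psmb7 had r = 0.79 on both scales. Ank3, the gene of ankyrin G at the axon initial segment, with exons of 10109 bases, had r = 0.81 after removal and -0.29 before it. Lin7b ranked sixth, with r = 0.77. These are descriptions over the same 27 animals.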
